A study of Mus musculus with 6 samples.

Results

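The immediate early and activity-dependent genes are genes whose RNA rises within minutes to hours of a stimulus, without new protein synthesis. The set here holds 33 genes, chosen by symbol, of the 54532 genes in the deposited table. Each symbol had 1 row. The libraries were poly-A RNA of pancreatic islets from mice of 7 weeks. The control group was Wtap flox/flox (n = 3), which carries recombination sites in both copies of Wtap. The other group bears the label Wtap-βKO (n = 3), a deletion of Wtap meant for the insulin-producing β cells. Each library pooled the islets of 3 mice and held every cell type of the islet preparation. The labels name neither the Cre line nor the deleted exons. Per the labels, the replicates within a group are biological and independent.

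In β cells, glucose closes potassium channels, the membrane depolarizes and calcium enters. Calcium, cyclic AMP and the ERK kinases then act on transcription factors that are already present, chiefly CREB and SRF, and these switch on immediate early genes such as Fos, Egr1 and Npas4. Many of the products are transcription factors of the AP-1, EGR and NR4A families, while others, such as the DUSP phosphatases, shut the signal down. The same genes respond to the handling of cells and tissue. Their messenger RNAs decay fast. The targeted gene, Wtap, encodes a subunit of the methyltransferase that adds N6-methyladenosine (m6A) to messenger RNA.

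Values are FPKM as the authors deposited them, fragments normalised to gene length and to a library size. Levels of different genes can thus be set side by side. Reads recovered from the FPKM came to between 16353297 and 18682745 per library. The library size implied by the FPKM was 0.952 to 0.988 times these reads in the controls. It was 1.04 to 1.07 times these reads in the Wtap-βKO-labelled libraries, so the deposited values are not scaled to total reads alone. A gene was tested when its mean FPKM over the 6 libraries was at least 0.5, which 28 of the 33 members passed, and changes are on the scale log2(FPKM + 1). Wtap was 10.5, 11.4 and 11.6 FPKM in the controls. The Wtap-βKO-labelled libraries had 11.2, 11.9 and 12.3 FPKM. The groups overlapped, and the limma test gave an adjusted p of 0.475. This level covers all exons and all cell types, and the groups below are the libraries as labelled.

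Of the 28 members tested, 8 fell and 2 rose in the Wtap-βKO-labelled libraries (limma, adjusted p under 0.05), beside 20.1% of all genes tested that changed in either direction. The 8 lower members are 28.6% of those tested, where 11.3% of all 15927 genes tested were lower. The 2 higher members are 7.14%, where 8.77% of all genes were higher. In the fit of genes with a mean of at least 5 FPKM, 7 of 22 members fell, beside 1571 of 7830 genes. In that fit 3 members rose, beside 1026 genes. A larger share of all genes was called at that level, and the gap in lower calls between members and all genes was narrower. Fosb and Arc fell most, 3.10-fold and 2.26-fold. Egr1, Junb, Dusp1, Myc, Npas4 and Ier5 also fell, by ratios between 1.28 and 1.92, while Dusp6 rose 2.08-fold and Klf10 1.28-fold. In bulk tissue, fewer cells of a type and less RNA per cell cannot be told apart.

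The median log2 fold change of the 28 members was -0.19, beside -0.0054 for all genes tested. For all genes with a mean of at least 5 FPKM, a level that 22 of the 28 members reached, it was -0.046. The shares that follow were not matched for level. Every library of one group lay apart from the other group for 12 members on the lower side (42.9%, where 22.1% of all genes tested did so) and for 3 on the higher side (10.7%, where 19.1% did so). Scaled to total recovered reads, 4 members fell and 3 rose, and over all genes 1093 fell and 2336 rose, in place of 1798 and 1397. The median log2 fold change of all genes was 0.082 on that scale. The lower count was 4, 5 and 5 without control replicates 1, 2 and 3, beside 1034, 1020 and 1044 of all genes. It was 4 without Wtap-βKO-labelled replicate 1 (1218 of all genes) and 5 without replicate 2 of that group (1834 of all genes). The higher count was 1 without any 1 control (804, 774 and 861 of all genes) and without Wtap-βKO-labelled replicate 3 (832 of all genes). Without a control, lower calls thus dropped over all genes too. Without Wtap-βKO-labelled replicate 2 they did not drop over all genes.

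**Figure D1:**
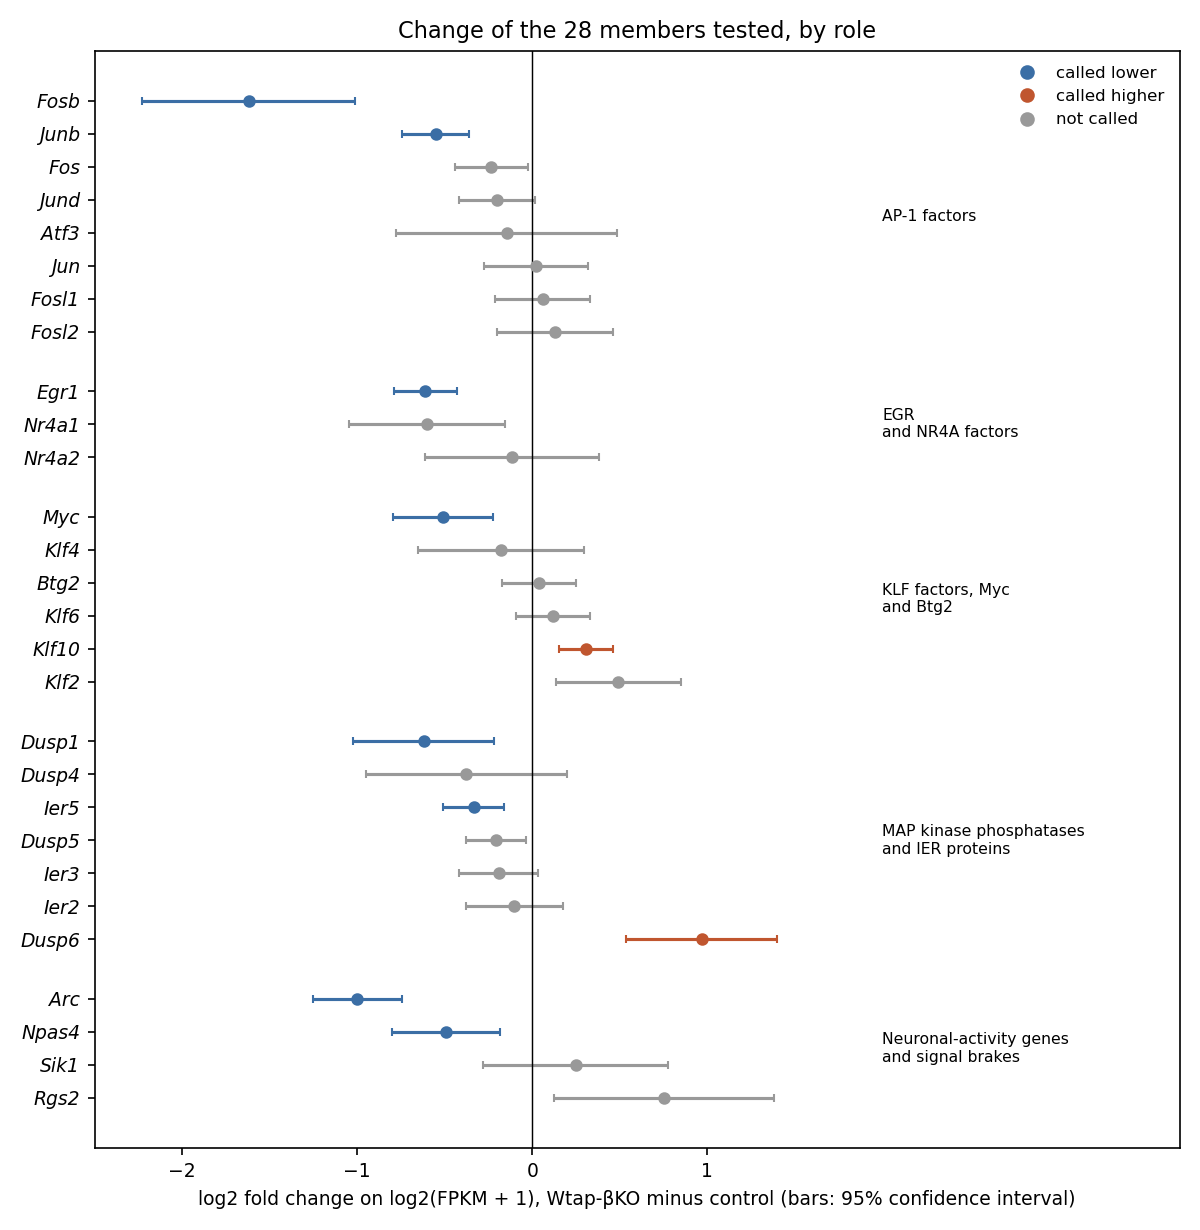
Log2 fold change of the 28 members tested, Wtap-βKO-labelled libraries minus controls, on the log2(FPKM + 1) scale, grouped by role, with 95% confidence intervals from limma (n = 3 each). Blue marks the 8 members called lower, red the 2 called higher and grey the 18 that did not pass. Fosb is farthest to the left and Dusp6 farthest to the right.

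RefSeq promoter windows were at hand for 24 of the 33 members, and those of the 6 called members that had a window are shown. The called members Arc, Egr1, Klf10 and Myc had none. Each line gives the bases upstream of the RefSeq start of the gene, 5′ to 3′ on the strand of the gene (GRCm38.p6). Bases inside the transcribed part of the deposited gene model were left off. Capitals mark the cyclic AMP response element (CRE, TGACGTCA), its core TGACG and the EGR site GCGGGGGCG, on either strand, and cores inside a full CRE share its letters.
Fosb (chr7:19310052-19310295, minus strand): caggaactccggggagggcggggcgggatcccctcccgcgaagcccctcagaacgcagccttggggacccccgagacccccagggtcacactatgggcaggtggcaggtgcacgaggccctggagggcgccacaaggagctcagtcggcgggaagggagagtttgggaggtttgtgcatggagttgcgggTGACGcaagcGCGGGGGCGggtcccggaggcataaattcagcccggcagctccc
Junb (chr8:84978749-84978998, minus strand): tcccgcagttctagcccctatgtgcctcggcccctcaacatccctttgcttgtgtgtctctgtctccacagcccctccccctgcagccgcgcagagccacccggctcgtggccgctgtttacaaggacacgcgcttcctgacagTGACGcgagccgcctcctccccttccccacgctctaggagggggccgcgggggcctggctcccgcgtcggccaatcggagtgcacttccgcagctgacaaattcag
Npas4 (chr19:4989972-4990221, minus strand): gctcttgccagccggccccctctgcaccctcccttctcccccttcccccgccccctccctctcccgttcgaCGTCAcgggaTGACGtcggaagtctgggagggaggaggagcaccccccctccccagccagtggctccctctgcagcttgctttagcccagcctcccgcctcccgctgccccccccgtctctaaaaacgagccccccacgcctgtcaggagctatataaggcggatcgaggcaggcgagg
Dusp1 (chr17:26508520-26508722, minus strand): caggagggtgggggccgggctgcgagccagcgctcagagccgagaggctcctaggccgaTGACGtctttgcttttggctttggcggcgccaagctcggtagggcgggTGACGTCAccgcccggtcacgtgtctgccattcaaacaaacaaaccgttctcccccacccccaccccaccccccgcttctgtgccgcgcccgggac
Ier5 (chr1:155099637-155099886, minus strand): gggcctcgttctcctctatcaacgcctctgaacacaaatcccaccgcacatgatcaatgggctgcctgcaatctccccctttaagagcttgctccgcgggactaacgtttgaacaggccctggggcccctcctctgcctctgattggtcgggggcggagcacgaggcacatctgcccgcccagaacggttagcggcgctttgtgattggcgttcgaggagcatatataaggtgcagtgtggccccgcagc
Dusp6 (chr10:99262981-99263230, plus strand): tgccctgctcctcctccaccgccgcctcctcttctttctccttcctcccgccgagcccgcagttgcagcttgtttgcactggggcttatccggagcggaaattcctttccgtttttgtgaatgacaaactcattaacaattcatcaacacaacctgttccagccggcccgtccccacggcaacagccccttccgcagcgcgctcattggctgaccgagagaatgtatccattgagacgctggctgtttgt

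With 1 window a gene, the first listed, the CRE core was in the 250 bases upstream of 15 of 24 members (62.5%). It was in 27.1% of the 10593 tested genes with a window and in 17.9% of all 27025 genes with one. Counting any window of a gene, the shares were 66.7% of members and 30.3% of tested genes. Of the called members shown, Fosb, Junb, Npas4 and Dusp1 held the core. Dusp6, which rose, and Ier5, which fell, did not hold these letters in this window. Members that were not called held it too, among them Fos, Nr4a1, Nr4a2 and Btg2. The full CRE was in the windows of Dusp1 and Btg2 (8.33% of members, 2.83% of tested genes). The EGR site was in 6 of the 24 windows (25.0%, against 4.98%), those of Fosb and Nr4a1 among them, and the SRF CArG box in that of Dusp5 (4.17%, against 1.199%). The AP-1 sites TGACTCA and TGAGTCA were in none of the 24, against 2.82% of tested genes. These matches describe letters and show no binding.

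The AP-1 factors are protein dimers that bind DNA, such as those of a FOS and a JUN protein. Fosb, on chromosome 7 from 19302696 to 19310051 (GRCm38, minus strand), was 37.9, 34.7 and 31.0 FPKM in control replicates 1 to 3. It was 7.31, 9.42 and 16.7 FPKM in Wtap-βKO-labelled replicates 1 to 3. The groups lay far apart, and Wtap-βKO-labelled replicate 3 was the highest of its group. The log2 fold change was -1.62 (SE 0.26, adjusted p = 0.00696 by limma). Fosb fell in all 16 alternatives, with adjusted p from 4.61e-05 to 0.0315.

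Fos, the founding member of the family and the most abundant member of the set, was 465, 451 and 452 FPKM in the controls. The Wtap-βKO-labelled libraries had 389, 348 and 431 FPKM. The groups did not overlap, but Wtap-βKO-labelled replicate 3 came close to the controls. The log2 fold change was -0.23 (95% confidence interval -0.44 to -0.024, adjusted p = 0.111 by limma) and did not pass. It passed on the recovered reads with limma voom (adjusted p = 0.0380) and under quantile normalization (-0.54, adjusted p = 0.0138). Per 100 FPKM of Fos there were 7.57 ± 0.654 FPKM of Fosb in controls and 2.82 ± 0.998 in the Wtap-βKO-labelled libraries (SD, n = 3 each). The ratio was lower in all 3 of these libraries than in any control. A two-sided exact permutation test gave p = 0.1, which cannot go lower with 3 libraries a group. The value was the same after adjustment over the 5 ratios computed. For each of these 5 ratios the ranges of both genes alone set the groups apart. The p-values of the ratios therefore add no support to the calls. Fosl1 and Fosl2, the FRA genes of the same family, stayed between 1.24 and 2.13 FPKM in all 6 libraries, with log2 fold changes of 0.06 and 0.13 and overlapping groups.

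Junb, which encodes a JUN partner, lies on chromosome 8 from 84974484 to 84978718 (GRCm38, minus strand). It was 186, 160.5 and 167 FPKM in the controls and 109, 116 and 125 FPKM in the Wtap-βKO-labelled libraries. No library of one group reached the other, and the log2 fold change was -0.55 (SE 0.081, adjusted p = 0.00544). Junb fell in all 16 alternatives, with adjusted p up to 0.0227. It overlaps Prdx2 on the other strand, whose mean was 36.9 FPKM in controls and 40.2 in the Wtap-βKO-labelled libraries. The library protocol has no step that marks the strand, so reads from the shared stretch could not be told apart.

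Jun was 109.9, 92.5 and 92.7 FPKM in the controls and 93.8, 88.2 and 119 FPKM in the Wtap-βKO-labelled libraries. Its groups overlapped, and the log2 fold change of 0.02 had a 95% confidence interval from -0.28 to 0.32. There were 175 ± 5.60 FPKM of Junb per 100 FPKM of Jun in controls and 117 ± 13.5 in the Wtap-βKO-labelled libraries (SD, n = 3 each; exact permutation test, p = 0.1). Jund was 61.1 ± 6.71 and 53.0 ± 3.87 FPKM (log2 fold change -0.20, adjusted p = 0.173), with every library labelled Wtap-βKO below every control by a narrow margin. Atf3, a stress-induced AP-1 partner, was at most 1.35 FPKM in any library and spread widely within the Wtap-βKO-labelled group, from 0.156 to 1.35 FPKM. Jun and Jund overlap antisense genes, Fosl1 overlaps Ccdc85b and Atf3 overlaps a small RNA gene, so the same limit of strand holds for them. The antisense partner Junos had 15 to 41 reads per library beside 4660 to 6563 for Jun, and those of Jund and Atf3 had none.

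**Figure D2:**
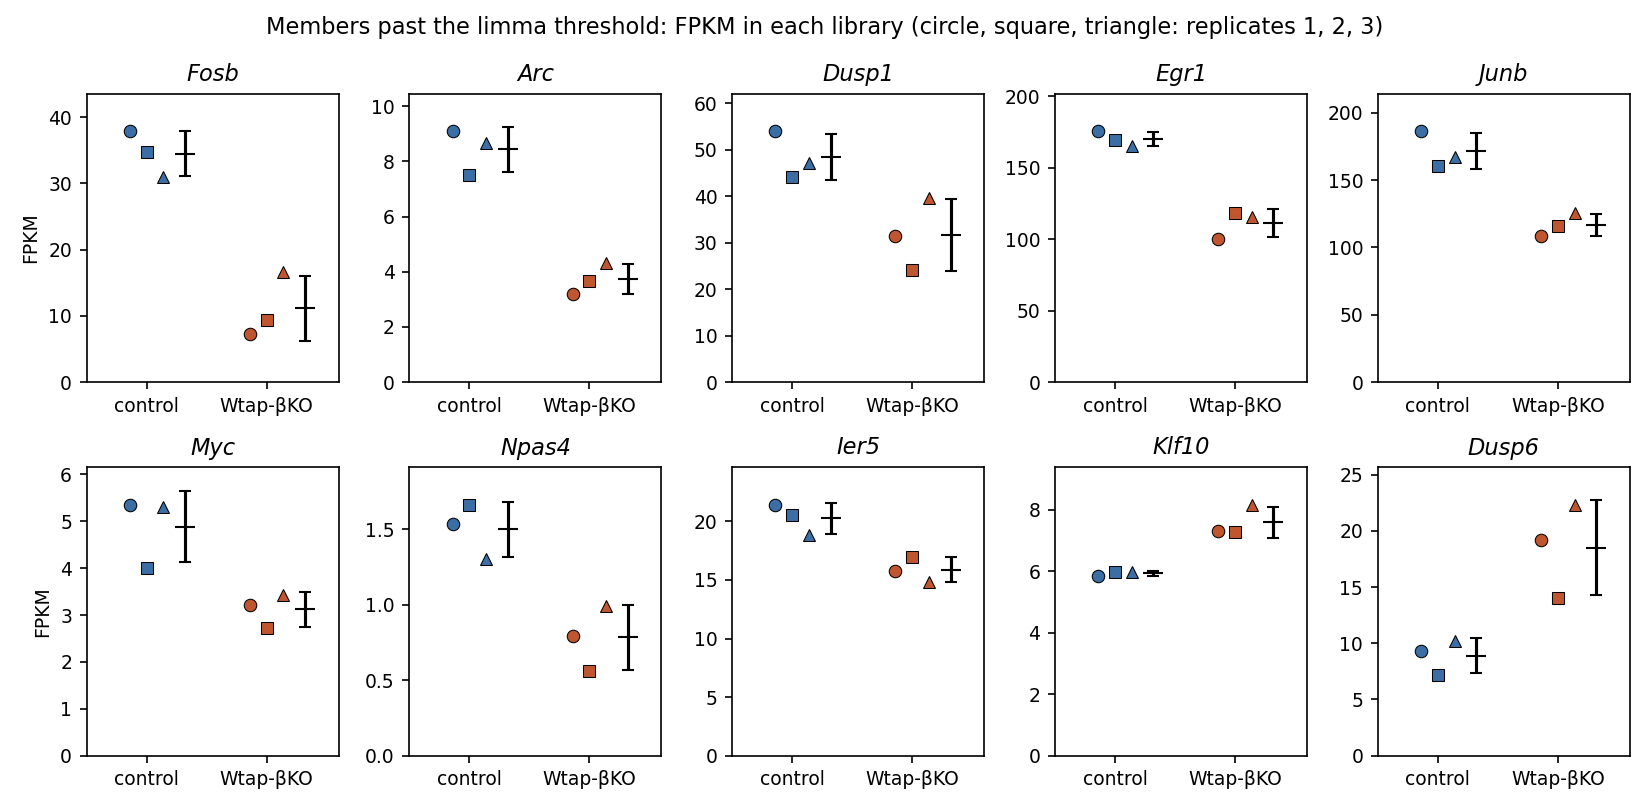
FPKM of the 10 called members in each of the 6 libraries, controls in blue and Wtap-βKO-labelled libraries in red, with the mean and SD of each group (n = 3) beside the points and every axis starting at 0. The groups do not overlap for any of the 10. For 8 of them, all but Egr1 and Ier5, replicate 3 is the highest of the Wtap-βKO-labelled group.

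Egr1, a zinc finger factor induced by glucose and calcium in β cells, was 176, 169 and 166 FPKM in the controls. It was 100.1, 118 and 116 FPKM in the Wtap-βKO-labelled libraries, all below every control. It lies on chromosome 18 from 34859823 to 34864984 (GRCm38, plus strand). Its log2 fold change was -0.61 (SE 0.076, adjusted p = 0.00304), and Egr1 fell in all 16 alternatives, with adjusted p up to 0.0177. Per 100 FPKM of Fos there were 37.3 ± 0.594 FPKM of Egr1 in controls and 28.8 ± 4.45 in the Wtap-βKO-labelled libraries (SD, n = 3 each; exact permutation test, p = 0.1). The other EGR genes were near the floor of detection. Egr2 had 9 to 30 reads per library and Egr3 4 to 18, both with overlapping groups. Egr4 had 34, 21 and 18 reads in the controls and 0, 14 and 13 in the Wtap-βKO-labelled libraries, all below the controls. The 0 in replicate 1 allows up to 3 reads, or 0.0741 FPKM. Egr4 was not tested at the filter used. Without a filter its log2 fold change was -0.43 (SE 0.16, adjusted p = 0.188).

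The NR4A genes encode orphan nuclear receptors that respond to calcium and cyclic AMP. Nr4a1 was 34.0, 27.2 and 34.0 FPKM in the controls and 15.4, 20.98 and 26.5 FPKM in the Wtap-βKO-labelled libraries. The groups did not overlap, and Wtap-βKO-labelled replicate 3 stood just under the lowest control. The log2 fold change was -0.60 (SE 0.19, adjusted p = 0.0654) and did not pass. It passed without Wtap-βKO-labelled replicate 3 (-0.78, adjusted p = 0.0323), with a minimum mean of 5 FPKM (adjusted p = 0.0369) and on recovered reads with limma voom (adjusted p = 0.00793). Nr4a2 was 5.18 ± 0.613 and 4.85 ± 1.84 FPKM, with overlapping groups, and Nr4a3 had 9 to 22 reads per library and was not tested.

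Among the growth-linked factors, Myc, which drives cell growth, was 5.36, 4.01 and 5.30 FPKM in the controls and 3.22, 2.71 and 3.44 FPKM in the Wtap-βKO-labelled libraries. Its groups lay apart (log2 fold change -0.51, SE 0.12, adjusted p = 0.0273). The call was lost in 7 of 15 alternatives, with adjusted p up to 0.0907, and any 1 library other than control replicate 2 was enough to lose it when left out. Myc lies on chromosome 15 from 61985391 to 61990374 (GRCm38, plus strand). Btg2, an antiproliferative gene, is also a p53 target. It was 109 ± 3.76 and 112 ± 13.5 FPKM, with overlapping groups and a 95% confidence interval of the log2 fold change from -0.17 to 0.25.

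The KLF genes of the set encode zinc finger factors. Klf10, a gene induced by TGF-β and by glucose, was 5.85, 5.98 and 5.99 FPKM in the controls and 7.31, 7.30 and 8.17 FPKM in the Wtap-βKO-labelled libraries. The controls were almost equal and all lay below the other group (log2 fold change 0.31, SE 0.066, adjusted p = 0.0196). Its call was lost without any 1 control (adjusted p = 0.0702, 0.0610 and 0.0609 without replicates 1, 2 and 3) and without Wtap-βKO-labelled replicate 3 (0.0658). It lies on chromosome 15 from 38291463 to 38300706 (GRCm38, minus strand).

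Klf2, best known from endothelial cells under flow, was 8.10, 5.998 and 7.18 FPKM in the controls and 8.44, 12.6 and 10.3 FPKM in the Wtap-βKO-labelled libraries. Its groups did not overlap, though Wtap-βKO-labelled replicate 1 lay just above the highest control (log2 fold change 0.49, SE 0.15, adjusted p = 0.0611). It passed in 5 of 16 alternatives, including without Wtap-βKO-labelled replicate 1 (adjusted p = 0.0391). Of 10 endothelial markers, 2 rose (20%, beside 8.77% of all genes tested). Their summed level was 187 to 225 FPKM in the controls and 222 to 252 in the Wtap-βKO-labelled libraries. The count of higher markers was 1 without Wtap-βKO-labelled replicate 2, 0 without any 1 of the other 5 libraries, and 5 when scaled to total recovered reads. Over all genes, 1379 rose without Wtap-βKO-labelled replicate 2 and 774 to 958 without any 1 of the other 5 libraries, in place of 1397. When scaled to total recovered reads, 2336 of all genes rose. The part of the endothelial markers in the value of Klf2 was not tested. Klf4 and Klf6 were 13.1 ± 1.99 and 6.98 ± 0.686 FPKM in controls, and 11.6 ± 3.41 and 7.66 ± 0.646 in the Wtap-βKO-labelled libraries, with overlapping groups.

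The dual-specificity phosphatases remove phosphate from MAP kinases, and they moved in both directions. Dusp6, a cytoplasmic phosphatase of ERK and itself a target of ERK signalling, was 9.28, 7.18 and 10.2 FPKM in the controls. It was 19.2, 14.02 and 22.3 FPKM in the Wtap-βKO-labelled libraries, each above the highest control. Its log2 fold change was 0.97 (SE 0.18, adjusted p = 0.0127), and Dusp6 rose in all 16 alternatives, with adjusted p up to 0.0460. It lies on chromosome 10 from 99263231 to 99267489 (GRCm38, plus strand).

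Dusp1, a nuclear phosphatase of p38, JNK and ERK, was 54.0, 44.1 and 47.1 FPKM in the controls and 31.4, 24.1 and 39.5 FPKM in the Wtap-βKO-labelled libraries. The groups lay apart, with Wtap-βKO-labelled replicate 3 nearest to the other group (log2 fold change -0.62, SE 0.17, adjusted p = 0.0445). The call of Dusp1 was weak. It was lost in 10 of 16 alternatives, with adjusted p up to 0.129. These included scaling to total recovered reads, scaling without the 50 highest genes and quantile normalization. Leaving out any 1 library also ended it, Wtap-βKO-labelled replicate 3 excepted. Dusp1 lies on chromosome 17 from 26505590 to 26508519 (GRCm38, minus strand). Per 100 FPKM of Dusp1 there were 18.4 ± 2.89 FPKM of Dusp6 in controls and 58.6 ± 2.41 in the Wtap-βKO-labelled libraries (SD, n = 3 each; exact permutation test, p = 0.1). Dusp6 lay above and Dusp1 below every control in each Wtap-βKO-labelled library, so the ratio had to separate the groups. Its p-value therefore adds no support to either call. The ratio varied little within either group. It was 16.3 to 21.7 in the controls and 56.5 to 61.2 in the Wtap-βKO-labelled libraries.

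Dusp5, a nuclear ERK phosphatase, was 24.3 ± 1.75 and 20.9 ± 1.16 FPKM, with groups that did not overlap and a log2 fold change of -0.21 (adjusted p = 0.0860). An antisense gene overlaps it. Dusp4 was 6.39 ± 1.68 and 4.77 ± 1.77 FPKM, with overlapping groups (adjusted p = 0.315). Dusp2, a phosphatase of immune cells, had 3 to 17 reads per library and was not tested.

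The IER genes encode small immediate early response proteins. Ier5 was 21.4, 20.5 and 18.8 FPKM in the controls and 15.8, 17.0 and 14.8 FPKM in the Wtap-βKO-labelled libraries. All 3 of the latter lay below every control library (log2 fold change -0.33, SE 0.073, adjusted p = 0.0210). Its call was lost when scaled to total recovered reads (adjusted p = 0.0859), without control replicate 1 or 2 (0.0760 and 0.0725) and without replicate 1 or 3 labelled Wtap-βKO (0.0598 and 0.0696). It lies on chromosome 1 from 155096361 to 155099636 (GRCm38, minus strand). Ier2 was 59.5 ± 6.24 and 55.5 ± 7.52 FPKM and Ier3 5.79 ± 0.485 and 4.96 ± 0.563 FPKM, both with overlapping groups.

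Of the 4 neuronal-activity genes and signal brakes tested, Arc and Npas4 fell and Rgs2 and Sik1 did not pass. Arc, which encodes a cytoskeletal protein of active synapses, was 9.09, 7.52 and 8.68 FPKM in the controls and 3.21, 3.67 and 4.31 FPKM in the Wtap-βKO-labelled libraries. The highest of the latter was well under the lowest control. Its log2 fold change was -0.998 (SE 0.11, adjusted p = 0.00185), and Arc fell in all 16 alternatives, with adjusted p up to 0.0120. Arc lies on chromosome 15 from 74669083 to 74672570 (GRCm38, minus strand). Per 100 FPKM of Fos there were 1.85 ± 0.157 FPKM of Arc in controls and 0.960 ± 0.120 in the Wtap-βKO-labelled libraries (SD, n = 3 each; exact permutation test, p = 0.1).

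Npas4, a factor induced by calcium entry in neurons and β cells, was 1.53, 1.66 and 1.30 FPKM in the controls and 0.793, 0.562 and 0.991 FPKM in the Wtap-βKO-labelled libraries. These values rest on 76 to 88 reads in the controls and 33 to 56 in the other group, which did not overlap. The log2 fold change was -0.49 (SE 0.13, adjusted p = 0.0391), understated by the added 1 at this level, and it was -0.96 on recovered reads with limma voom (adjusted p = 0.0140). The call was lost in 9 of 15 alternatives, with adjusted p up to 0.117. Among these were the replicate block (0.0880) and leaving out any 1 library, Wtap-βKO-labelled replicate 3 excepted. Npas4 lies on chromosome 19 from 4984355 to 4989971 (GRCm38, minus strand).

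Sik1 and Rgs2 encode brakes on signalling. Rgs2, which speeds the shut-off of Gq proteins, was 46.2, 66.1 and 47.9 FPKM in the controls and 82.0, 134 and 65.1 FPKM in the Wtap-βKO-labelled libraries. The groups overlapped by a narrow margin, and Wtap-βKO-labelled replicate 2 was far above the rest. The ratio of the means was 1.75 with that library and 1.38 without it (log2 fold change 0.75, SE 0.26, adjusted p = 0.0903). Rgs2 passed on recovered reads with limma voom (adjusted p = 0.0139) and with the replicate block (0.0225). Sik1, a kinase that restrains CREB coactivators, was 2.84 ± 1.02 and 3.54 ± 1.02 FPKM, with overlapping groups.

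Within groups, the same libraries were high or low for most members. Replicate 3 labelled Wtap-βKO was the highest of its group for 21 of the 28 members, where it was the highest for 30.04% of all genes tested. Over all genes tested, replicate 2 of that group was most often at an extreme, the highest for 39.1% and the lowest for 37.1%. Control replicate 1 was the highest of the controls for 16 of the 28 (29.6% of all genes) and control replicate 2 the lowest for 18 (35.0% of all genes). Against the control mean, the median member stood at -0.26, -0.23 and 0.0030 on the log2 scale in Wtap-βKO-labelled replicates 1 to 3. The median of all genes was within 0.0105 of the control mean in each of the 6 libraries. Summed over the 33 members, the level was 1489, 1379 and 1392 FPKM in the controls and 1147, 1187 and 1322 FPKM in the Wtap-βKO-labelled libraries. Without Wtap-βKO-labelled replicate 3 the median log2 fold change of the members was -0.27, 7 members fell and 1 rose, and Fosb was 4.13-fold lower. Over all genes, 1139 fell and 832 rose without that library.

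The median spread between replicates was larger for the members than for all genes above the same level. For the 22 members with a mean of at least 5 FPKM the median coefficient of variation was 10.1% in controls and 14.2% in the Wtap-βKO-labelled libraries. For all 7830 genes at that level it was 5.68% and 7.54%. The largest among these members were those of Dusp4 in controls (26.3%) and of Fosb in the Wtap-βKO-labelled libraries (44.1%).

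**Figure D3:**
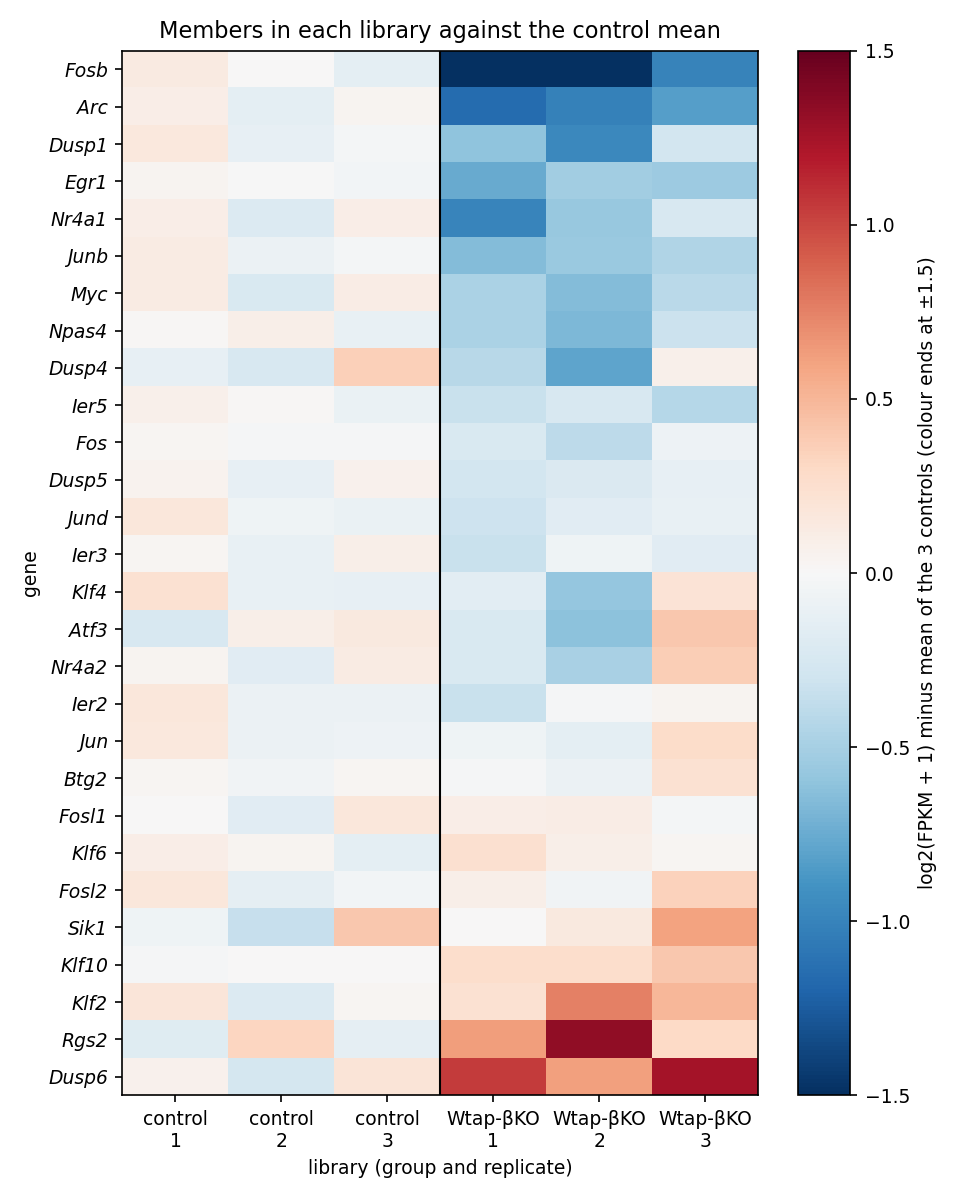
Each of the 28 members tested (rows, ordered by fold change) in each of the 6 libraries (columns), as log2(FPKM + 1) minus the mean of the 3 controls, with colours ending at ±1.5. Fosb, Arc and Egr1 are blue in all 3 Wtap-βKO-labelled libraries and Dusp6 is red in all 3. Jun, Btg2, Nr4a2, Atf3, Klf4, Ier2 and Dusp4 are above the control mean in replicate 3 alone of that group.

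The called genes upstream of the set differed by modest ratios. Of 26 tested genes of upstream kinases and calcium signalling, 7 fell and 2 rose (26.9% and 7.69%, beside 11.3% and 8.77% of all genes tested). Prkaca and Prkacb, the catalytic subunits of protein kinase A, fell 1.26-fold and 1.34-fold. Ppp3cb, a calcineurin subunit, fell 1.29-fold, and Camkk2, which activates calcium/calmodulin kinases, rose 1.80-fold. The lower count was 4 without control replicate 1 or 2 and when scaled to total recovered reads. Over all genes, 1034, 1020 and 1093 fell in these fits, in place of 1798. Of 22 upstream transcription factors tested, 2 fell, Stat3 (1.36-fold) and Crtc1, a CREB coactivator (1.25-fold, lost without control replicate 3 with adjusted p = 0.0523 and when scaled to total recovered reads with 0.0594). The 2 are 9.09% of this list, near the 11.3% of all genes tested that fell. No gene of the list rose by limma, while 2 were higher at an unadjusted p under 0.05 and 2 rose by limma voom. The median log2 fold change of the list was -0.08 as deposited and 0.02 when scaled to total recovered reads, so its sign depended on the scaling. Atf1, a CREB relative, and Nfatc2, a calcineurin target, had log2 fold changes of -0.22 and -0.33 and did not pass (adjusted p = 0.0578 and 0.0645).

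Among other rapidly induced genes, outside the 33, more rose than fell. Of 50 tested, 14 rose and 2 fell, where 8.77% of all genes tested rose and 11.3% fell. Klf15, a glucocorticoid-responsive factor, rose from 4.87 ± 0.128 to 12.4 ± 1.87 FPKM, 2.54-fold. The phosphatase gene Dusp14 rose 2.24-fold, and Spry2, a feedback inhibitor of ERK signalling, rose from 5.08 ± 0.411 to 8.52 ± 0.199 FPKM, 1.68-fold. Plk3, a stress-response kinase, fell from 13.2 ± 2.10 to 5.33 ± 0.971 FPKM, 2.48-fold. All 4 kept their calls in every alternative in which they were tested. The other gene that fell was Gadd45g (1.55-fold), named because the count is small. Without control replicate 1 or 2, or without Wtap-βKO-labelled replicate 1, the higher count was 9. It was 7 without control replicate 3 and 8 without Wtap-βKO-labelled replicate 3, and without replicate 2 of that group the lower count was 5. Over all genes, 774 to 958 rose in the fits that lowered the higher count, in place of 1397. Without Wtap-βKO-labelled replicate 2, 1834 of all genes fell, in place of 1798.

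Of 10 later activity-dependent genes tested, 2 rose and 1 fell, beside 8.77% and 11.3% of all genes tested. Rem2, a calcium channel regulator induced by activity, fell from 5.52 ± 0.295 to 2.68 ± 0.0971 FPKM. The neuropeptide precursor Vgf rose 2.43-fold, and the granin Scg2 rose 1.63-fold (lost without a filter on low values, adjusted p = 0.234). Syt4, a synaptotagmin induced by activity, was 28.9 ± 2.81 and 23.9 ± 1.03 FPKM (adjusted p = 0.0606).

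Heat shock genes, which respond to the handling of cells as immediate early genes do, rose. Of 12 tested, 8 rose, against 8.77% higher among all genes. None was lower by limma, by limma voom or at an unadjusted p under 0.05. Hspa1a, an inducible HSP70 gene, was 1.69, 1.62 and 1.91 FPKM in the controls and 7.42, 3.78 and 5.34 FPKM in the Wtap-βKO-labelled libraries. Hspb1 rose 2.45-fold, Hsph1 1.95-fold and Hsp90aa1 1.598-fold. The summed level of all 12 heat shock genes was 855, 860 and 802 FPKM in control replicates 1 to 3. It was 1113, 1144 and 1143 FPKM in Wtap-βKO-labelled replicates 1 to 3. Replicate 3, the highest of its group for most members of the set, stood level with replicate 2 in this sum. For Hspa1a, replicate 1 of that group was the highest and replicate 2 the lowest. The part of handling in either set of values was not tested.

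**Figure D4:**
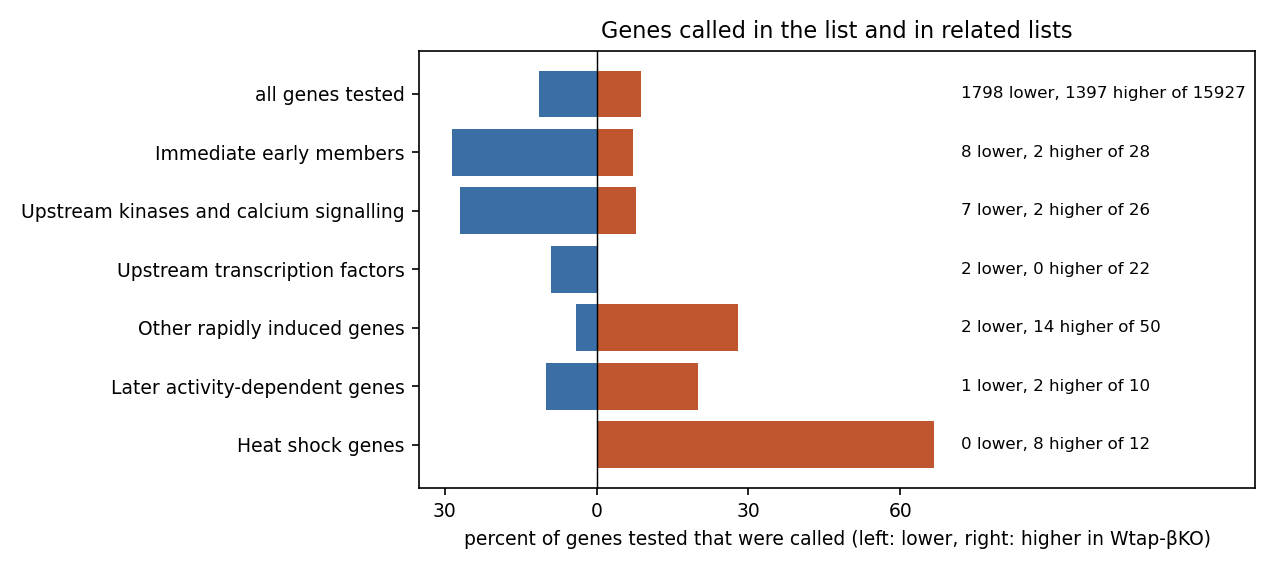
Share of tested genes called lower (blue, to the left) and higher (red, to the right) in the Wtap-βKO-labelled libraries, in percent, for all 15927 genes tested, the 28 members tested and the 5 related lists, with the counts at the right. The members and the upstream kinases show more lower calls than all genes, and the other rapidly induced and heat shock genes more higher calls.

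Markers of the cell types moved too. Of 10 β-cell markers 8 fell, and their summed level, mostly insulin, was 135142 to 155400 FPKM in controls and 81970.5 to 92558 in the Wtap-βKO-labelled libraries. Of 9 markers of α, δ and PP cells 6 rose, where 8.77% of all genes tested rose and 11.3% fell. That count was 4 without control replicate 2 or 3 or Wtap-βKO-labelled replicate 3, and 8 when scaled to total recovered reads. The tested markers of other cells rose in 2 of 9 cases for acinar, 1 of 6 for ductal and 5 of 8 for mesenchymal cells. The 1 ductal call is 16.7% of its list, too few genes to set apart from the share over all genes. The acinar count was 0 without control replicate 1 or 2, 1 without Wtap-βKO-labelled replicate 1 or 2, and 6 without control replicate 3 or by limma voom. It was 4 when scaled to total recovered reads. The mesenchymal count was 3 without control replicate 1 or 2 and without Wtap-βKO-labelled replicate 1 or 3. Higher calls over all genes moved as well. They numbered 1397 in the main fit, 1379 without Wtap-βKO-labelled replicate 2 and 774 to 958 without any 1 other library. They numbered 2336 when scaled to total recovered reads and 1854 by limma voom. The mesenchymal sum was 49.2 to 59.6 FPKM in controls and 72.2 to 83.1 in the Wtap-βKO-labelled libraries, and the acinar sums were 111 to 192 and 192 to 271. Of 7 tested macrophage and neutrophil markers 1 rose (14.3%, again a single gene), with sums of 99.7 to 109 and 118 to 132 FPKM. The neutrophil markers Ly6g and S100a8 were at 0 in every library. Of the 3 tested lymphocyte markers, the antibody genes Igkc and Jchain rose and Cd79a fell, while Cd3e, Cd3g and Ms4a1 were below 0.04 FPKM on average. The part of these shifts in the values of the immediate early genes was not tested.

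The members share features of their transcripts that the choice by symbol did not use. In the coding transcript with the longest reading frame (GENCODE M21), the median member had 4 exons, where the median of 12584 other coding genes tested had 9. The AU-rich pentamer ATTTA, a mark of short-lived messenger RNA, occurred in the 3′ untranslated region of 30 of 33 members (90.9%, against 65.7%), with medians of 1.88 and 1.199 per kilobase. The nonamer ATTTATTTA occurred only in Fos and Dusp1 among the members (6.06%, against 5.59%). The pentamer was absent from Arc, Egr4 and Ier2, so Arc, which fell, lacked it, and Fosb had it only 1 time. GGACT, the most common form of the m6A consensus, had a median of 1.24 per kilobase of coding and 3′ untranslated sequence in members and 1.04 in the other genes. It was 0.633 per kilobase in Fosb, 0.710 in Egr1, 1.05 in Arc, 1.32 in Junb and 3.00 in Dusp6. These letters say nothing of whether a site is methylated, and no methylation was measured here.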

How the data were processed

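Poly-A RNA of islets was measured in 6 libraries, 3 per group. The authors deposited 1 table of FPKM values with gene lengths in bases, per the file headers. The submitters' processing notes name featureCounts 1.5.0-p3, DESeq2 1.20.0, CASAVA and HISAT2 2.0.5 as the authors' tools, with the builds GRCm38 and mm10. Their roles are not given in the sources used here. FPKM multiplied by gene length was a whole multiple of 1 read, within 0.01 read, for 100.0% of values above 0, which gave the recovered reads. FPKM was used as deposited. Genes with a mean of at least 0.5 were fitted as log2(FPKM + 1) in limma 3.58.1 (R 4.3.3; lmFit, then eBayes with trended variance). Tests were two-sided, p-values were adjusted by Benjamini-Hochberg over the 15927 genes fitted, and the threshold was 0.05. All adjusted p-values come from such fits. The planned edgeR alternative was not run, as the deposited unit is FPKM. Limma voom on the recovered reads, with library sizes implied by the FPKM, took its place and was chosen after seeing the data.

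The members and the lists were chosen with earlier results of these data known. Every member was named, and of each other list up to 4 genes, ranked by adjusted p, among those with a mean of at least 1 FPKM. The fit was tested on simulated data with 15717 genes fitted. Of 100 genes changed 1.5-fold it called 20, and of 100 changed 2-fold it called 76, all in the right direction. It also called 16 unchanged genes. Changes of 1.5-fold were thus mostly missed in the simulation. Every pair of replicates differed beyond counting error (chi-square per degree of freedom 5.38 to 18.1). The pairs of Wtap-βKO-labelled replicate 2 with replicates 1 and 3 of its group gave 18.1 and 17.2, and all other pairs 5.38 to 6.61. Over all genes, replicate 2 was thus the library least like the others of its group. Promoters are RefSeq (GRCm38.p6), shown for the 6 called members with the smallest adjusted p that had a window and lie off chromosome 18. Counting limits cover counting error only. Python 3.11.15, pandas 2.3.3, SciPy 1.17.1 and matplotlib 3.10.9 were also used.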

Additional observations from a re-analysis of the deposited data

How the results depend on the processing

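The alternatives were 4 other scalings, a pseudocount of 0.1, no filter on low values, a minimum mean of 5 FPKM, no variance trend, a block for the replicate number, leaving out each library, and limma voom on recovered reads. Fosb, Arc, Egr1, Junb and Dusp6 kept their direction and stayed past the threshold in all 16. Against 8 lower and 2 higher members, 4 were lower when scaled to total recovered reads, 5 were lower with no filter, and 4 were higher with limma voom (10 lower). Over all genes, 1337 were lower with no filter, and 2244 were lower and 1854 higher with limma voom. Leaving out 1 library gave 4 to 7 lower and 1 to 3 higher members, beside 1020 to 1834 lower and 774 to 1379 higher of all genes. With the replicate block 8 were lower and 3 higher, and 1490 and 1148 of all genes. It ended the call of Npas4 and added Dusp4 (adjusted p = 0.0483) and Rgs2. Same-numbered libraries of the 2 groups deviated together with correlations of only 0.03, 0.04 and 0.02, each the highest for its library, so the number was not taken as a pairing. The median of the members stayed below 0 in every alternative, from -0.27 to -0.09. No called member changed direction. Members under about 30 reads per library (Egr2, Egr3, Nr4a3 and Dusp2) could show only large differences.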
